A study of Homo sapiens with 16 samples.

Results

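Total RNA of U2OS, an established human osteosarcoma cell line, was compared between 2 of the study's genotypes, named zdna3 and zdna2 in the labels. The comparison holds the 4 zdna3 libraries, 2 of the arm CL and 2 of the arm CC, against the 4 zdna2 libraries, again 2 of CL and 2 of CC, chosen by title from 16 libraries in all. The labels explain neither the numbers nor CL and CC and give no treatment, time or clone, so zdna2 is not called a control here. The title of the series names MYC, the histone chaperone FACT and Z-DNA, a double helix wound to the left. Each number has 1 further reference sequence of its own, called the contig, which is counted as a gene and carried by every group in the comparison. The unit of level is CPM, a gene's reads scaled to a common total of human-gene reads, and a difference is zdna3 over zdna2 with the arm held fixed, on the scale log2(CPM + 10). Beside the count test edgeR, it gave smaller rises for weakly expressed genes such as NR4A1 (2.57 against 3.52). Weak falls came out smaller in some genes (FBXL13, -1.92 against -2.20) and larger in others (KRIT1, -1.68 against -1.60).

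Immediate early genes are transcribed within minutes of a signal, without new protein synthesis, and many encode transcription factors of the AP-1 family (FOS and JUN proteins) or feedback inhibitors of the kinases that switch them on. The sterol genes are switched on by SREBP factors when membrane cholesterol is low, and the p53 target genes by the tumour suppressor p53. Noncoding RNAs made by RNA polymerase III, such as the RNA of the signal recognition particle and 7SK, are short and folded, whereas MALAT1, TUG1 and NORAD are long noncoding transcripts.

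Relative to all human-gene reads, zdna3 cells had more RNA of the immediate early genes FOSB, FOS, NR4A1, EGR1, ATF3 and JUN, of the calcium-regulated factor NFATC2 and of MYC than zdna2 cells. Genes of sterol synthesis, several matrix and YAP target genes and 13 of 26 tested histone genes were also higher. MDM2 and 5 other p53 target genes, the stress regulator DDIT4 and the long noncoding RNAs MALAT1, TUG1 and NORAD were lower. None of the few tested genes of FACT, of topoisomerases and of Z-nucleic acid binding proteins passed the test in either direction, where 5.95% of all genes tested did. Of the 4592 human genes that averaged 50 CPM or more over the 8 libraries, limma called 273 (5.95%) at an adjusted p under 0.05, 141 higher (3.07%) and 132 lower (2.87%) in zdna3. At an unadjusted p under 0.05 in limma stood 963 of the 4592. Counts in the gene lists below are to be set beside these shares. All 4 zdna3 libraries lay above all 4 zdna2 libraries in 121 of the 141 rises and in 219 of all genes tested (4.77%), and below them in 111 of the 132 falls and in 359 of all genes tested (7.82%). Lack of overlap was a condition for naming the steepest rises and falls, so it adds no support for those genes. The called rises took 12.7% to 13.4% of human-gene reads in the zdna3 libraries and 8.68% to 9.19% in the zdna2 libraries, and the called falls took 2.70% to 2.95% in zdna3 and 4.80% to 4.85% in zdna2.

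"Rose" and "fell" describe a gene's share of human-gene reads, not an amount per cell. The deposited values carry another scale, on which the median difference over all genes tested was -1.35, against -0.046 here, and on which 10 genes were called higher and 4052 lower. FOSB, FOS, NFATC2, NR4A1, FLJ16779, SNORA66, CXCL8, KRT75 and EGR1 were among these 10, and all 10 were among the 141 rises, of which 33 had a positive difference on that scale and 56 were called lower there. All 132 falls were called lower on both scales. How the deposited scale was set is not stated, although a file header holds the word spikein. In bulk RNA, fewer cells of a type and less RNA per cell cannot be told apart. The labels do not say that replicates came from separate cultures, so the p-values measure the spread between these libraries, which may be technical.

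**Figure D1:**
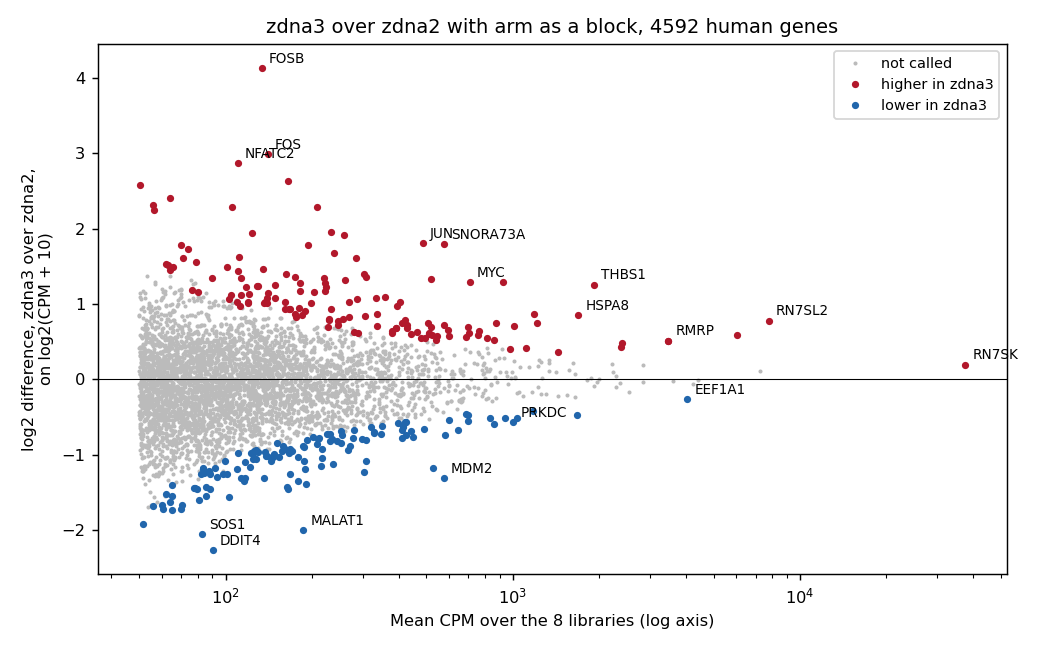
Difference of zdna3 over zdna2 with arm held fixed, in log2(CPM + 10), against the mean CPM of the 8 libraries (log axis), 1 point for each of 4592 human genes. Red points are the 141 genes called higher and blue points the 132 called lower by limma at an adjusted p under 0.05. Small differences passed the test only among genes with high CPM, as for RN7SK and EEF1A1, and on the deposited scale most red points lie below 0.

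The zdna3 libraries were shallower, with 42494 to 83269 human-gene reads against 118470 to 168213 in zdna2, so 1 read stood for 12.01 to 23.5 CPM in zdna3 and 5.94 to 8.44 CPM in zdna2. The contig gave 269 ± 9.33 reads per 1000 human-gene reads in zdna3 CL (mean ± SD, n = 2), 7028 ± 107 in zdna3 CC, 1538 ± 49.9 in zdna2 CL and 1769 ± 47.8 in zdna2 CC, and its part in the human differences was not tested. Reads over 423 olfactory receptor genes, which few tissues transcribe, summed to 165 to 420 CPM in zdna3 and 110 to 174 CPM in zdna2. Of 15 mesenchymal and osteosarcoma markers 10 reached the filter, with VIM at 1547 to 1741 CPM in zdna3 and 1497 to 1718 CPM in zdna2, while NT5E had no read in any of the 8 libraries. No blood or endothelial marker reached it, and their sums stayed at 0 to 37.9 and 25.3 to 141 CPM in zdna3, against 16.1 to 33.8 and 7.27 to 24.1 CPM in zdna2.

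FOSB and FOS, both immediate early genes, had the steepest rises. The promoters of FOS, FOSB and EGR1 are shown because these genes rose by over 4-fold in both arms and because their regulatory letters are well known. Each run gives the 250 bases before the gene's start in RefSeq (GRCh38.p14, plus strand), 5′ to 3′, with capitals for the CArG box (the motif of serum response factor), for TGACGT or its reverse complement ACGTCA (the core of the cAMP response element) and for TATAAA.
FOS promoter, chr14:75278578-75278827: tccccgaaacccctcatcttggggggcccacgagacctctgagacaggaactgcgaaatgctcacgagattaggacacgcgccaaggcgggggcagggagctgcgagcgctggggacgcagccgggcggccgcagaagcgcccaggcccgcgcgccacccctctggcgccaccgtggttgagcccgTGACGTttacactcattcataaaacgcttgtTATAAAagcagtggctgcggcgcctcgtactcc
FOSB promoter, chr19:45467746-45467995: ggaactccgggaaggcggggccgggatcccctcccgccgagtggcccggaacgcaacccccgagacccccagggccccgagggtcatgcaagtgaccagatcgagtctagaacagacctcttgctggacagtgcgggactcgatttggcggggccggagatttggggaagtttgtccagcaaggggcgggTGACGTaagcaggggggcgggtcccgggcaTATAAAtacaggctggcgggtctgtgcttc
EGR1 promoter, chr5:138465229-138465478: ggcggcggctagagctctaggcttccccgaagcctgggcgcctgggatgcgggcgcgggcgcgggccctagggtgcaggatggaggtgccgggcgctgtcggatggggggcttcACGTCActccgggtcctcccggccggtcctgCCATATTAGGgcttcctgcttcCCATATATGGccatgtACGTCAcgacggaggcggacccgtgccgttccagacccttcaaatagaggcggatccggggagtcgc
FOS and FOSB each held TGACGT, starting 64 and 60 bases before the start, and TATAAA, starting 33 and 30 bases before it. EGR1 held 2 CArG boxes and 2 copies of ACGTCA. FOS and FOSB held no CArG box within these 250 bases, and bases further upstream were not searched.

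FOSB (hg19 chromosome 19, 45971254 to 45978437), an AP-1 subunit, had 164 and 372 CPM in zdna3 CL and 252 and 259 CPM in zdna3 CC, against 7.27 and 5.94 CPM in zdna2 CL and 8.44 and 0 CPM in zdna2 CC. It was all but absent from zdna2, with 3 reads over 4 libraries against 69 in zdna3, a ratio of 48.5 with a 95% counting interval of 15.9 to 241. The fitted log2 difference was 4.13 (SE 0.437, adjusted p = 4.58e-09). FOS (hg19 chromosome 14, 75745531 to 75748933), the founding AP-1 subunit, had 240.0 and 264 CPM in zdna3 CL and 216 and 306 CPM in zdna3 CC, against 36.3 and 35.7 CPM in zdna2 CL and 16.9 and 8.03 CPM in zdna2 CC. Its lowest zdna3 library lay far above its highest zdna2 library, and the difference was 2.99 (SE 0.343, adjusted p = 2.63e-08). NR4A1, an orphan nuclear receptor, had 63.1 and 108 CPM in zdna3 CL and 108 and 94.1 CPM in zdna3 CC, against 7.27 and 5.94 CPM in zdna2 CL and 8.44 and 8.03 CPM in zdna2 CC, a difference of 2.57 (SE 0.576, adjusted p = 0.00368) that rests on 24 reads in zdna3 and 4 in zdna2. EGR1, a zinc finger transcription factor, had 417 and 396 CPM in zdna3 CL and 378 and 212 CPM in zdna3 CC, against 79.9 and 77.3 CPM in zdna2 CL and 67.5 and 40.1 CPM in zdna2 CC, and its groups did not overlap in either arm (2.28, SE 0.258, adjusted p = 1.83e-08). JUN, the partner of FOS proteins in AP-1, had 859 and 769 CPM in zdna3 CL and 683 and 706 CPM in zdna3 CC, against 211 and 244 CPM in zdna2 CL and 194 and 225 CPM in zdna2 CC. Its 4 zdna3 libraries lay within a narrow range well above zdna2, a difference of 1.81 (SE 0.167, adjusted p = 1.2e-10). ATF3, a stress-induced factor of the same fold, had 303 to 494 CPM in zdna3 and 79.9 to 153 CPM in zdna2 and differed by 1.91 (SE 0.222, adjusted p = 3.5e-08). DUSP1, a phosphatase that shuts off MAP kinases, differed by 1.40 (SE 0.267, adjusted p = 0.000488) and IER5 by 1.18 (SE 0.37, adjusted p = 0.0453).

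Of 28 genes in the immediate early list 21 were tested, of which 8 rose (38.1%) and 1 fell, against 3.07% and 2.87% of all genes tested. The list's median difference was 1.01, and -0.27 on the deposited scale, where the median of all genes was -1.35. BTG2, an antiproliferative gene that is also a p53 target, fell (-1.18, SE 0.351, adjusted p = 0.0324). With every library's reads thinned to the depth of the shallowest, an alternative chosen after seeing the data and named thinned reads here, 6 of the list were higher and 0 lower. DESeq2 gave the same counts, with no adjusted p for 3 of the called genes, NR4A1 and BTG2 among them. NR4A1 was at 2.54 (adjusted p = 0.135) with thinned reads. JUNB, JUND and KLF6 did not pass the test, with 1.37, 1.14 and 1.01, although edgeR called each of them, and FOSL1, a further FOS relative, stood at 0.065.

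**Figure D2:**
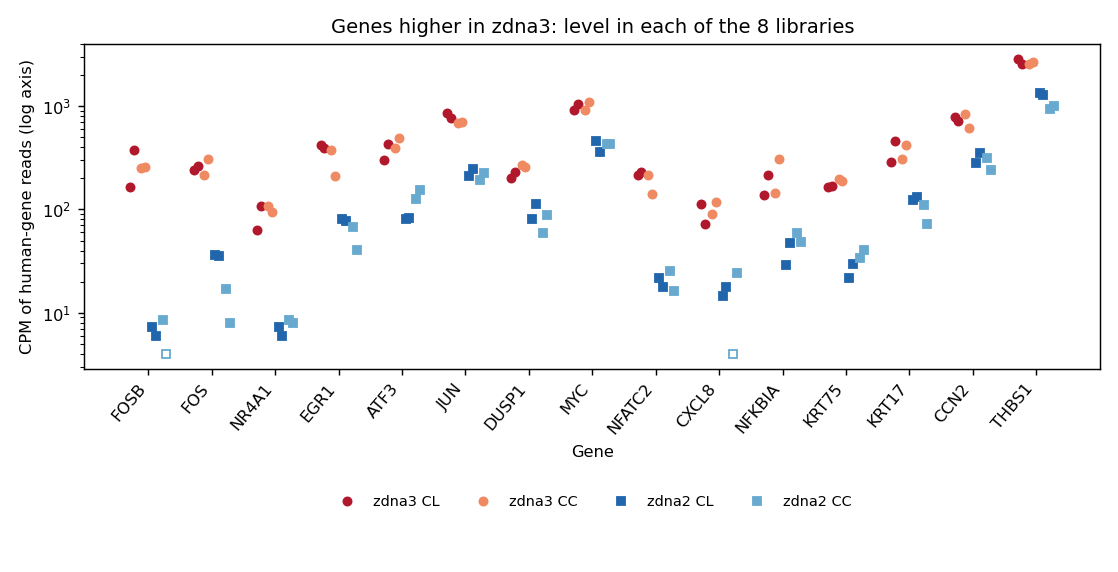
Level of 15 genes higher in zdna3, in CPM of human-gene reads (log axis), 1 point per library: red and orange circles for zdna3 CL and CC, dark and light blue squares for zdna2 CL and CC. Open markers near the foot stand for 0 reads. In each of the 15 genes all 4 zdna3 libraries lie above all 4 zdna2 libraries, a condition by which many of them were picked. On the deposited scale MYC, CCN2 and THBS1 have differences of -0.15, -0.090 and -0.18.

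MYC, the transcription factor named in the title, had 922 and 1045 CPM in zdna3 CL and 917 and 1106 CPM in zdna3 CC, against 458 and 357 CPM in zdna2 CL and 430.5 and 434 CPM in zdna2 CC. The lowest zdna3 library lay far above the highest zdna2 library, and the difference was 1.29 (SE 0.143, adjusted p = 1.26e-08), or -0.15 on the deposited scale. Its partner MAX was at -0.21 (adjusted p = 0.795). Of 12 tested members of the MYC network list MYC alone rose and none fell, with a list median of 0.042. SUPT16H and SSRP1, the subunits of FACT, differed by -0.030 (adjusted p = 0.947) and 0.36 (adjusted p = 0.171), so neither was called. ADAR, an editing enzyme with a Z-DNA binding domain, differed by 0.42 (adjusted p = 0.169), and ZBP1, a sensor of Z-form nucleic acid, had 0 reads in all 8 libraries, which allows up to 11.5 CPM in zdna3 and 5.47 CPM in zdna2. TOP1, TOP2A and TOP2B, which relax DNA supercoils, differed by -0.26 (adjusted p = 0.56), -0.16 (adjusted p = 0.631) and 0.16 (adjusted p = 0.774). None of the 5 FACT and HMGB genes, 6 topoisomerase genes and 8 genes for Z-form or double-stranded RNA binding proteins that were tested passed the threshold, with 1, 2 and 1 of them at an unadjusted p under 0.05 and 0 called by edgeR. Over all 4592 genes tested 5.95% were called and 963 had an unadjusted p under 0.05, so 0 calls in lists this small do not set them apart.

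NFATC2 (hg19 chromosome 20, 50003500 to 50179378), a calcium-regulated transcription factor, had 215 and 228 CPM in zdna3 CL and 216 and 141 CPM in zdna3 CC, against 21.8 and 17.8 CPM in zdna2 CL and 25.3 and 16.1 CPM in zdna2 CC. The zdna3 libraries exceeded zdna2 by over 5-fold without overlap, a difference of 2.86 (SE 0.365, adjusted p = 2.63e-07). RCAN1, an NFAT target that feeds back on calcineurin, also rose (1.07, adjusted p = 0.0443). Of 12 tested interferon and NF-kB genes 3 rose and none fell, with a list median of 0.40 that was -0.95 on the deposited scale. The 3 were NFKBIA and TNFAIP3, feedback inhibitors of NF-kB, and the chemokine gene CXCL8. NFKBIA had 139 and 216 CPM in zdna3 CL and 144 and 306 CPM in zdna3 CC, against 29.1 and 47.6 CPM in zdna2 CL and 59.1 and 48.2 CPM in zdna2 CC, no overlap between the numbers, and a difference of 1.94 (SE 0.32, adjusted p = 5.4e-05). CXCL8 rested on few reads, 25 in zdna3 and 8 in zdna2, with 2.25 (SE 0.543, adjusted p = 0.00751), and TNFAIP3 differed by 1.22 (SE 0.306, adjusted p = 0.0107). With thinned reads TNFAIP3 was at 0.31 (adjusted p = 0.791), and 1 of the list was called, against 2 with DESeq2.

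HMGCS1, an early enzyme of sterol synthesis, had 341 and 336 CPM in zdna3 CL and 324 and 259 CPM in zdna3 CC, against 124 and 149 CPM in zdna2 CL and 143 and 104 CPM in zdna2 CC. All 4 zdna3 libraries lay well above all 4 zdna2 libraries, and the difference was 1.28 (SE 0.224, adjusted p = 0.000138), or -0.11 on the deposited scale. SQLE, which oxidises squalene, rose too (0.97, adjusted p = 0.0365). SREBF2, a factor that drives sterol genes, had 165 to 341 CPM in zdna3 and 109.7 to 155 CPM in zdna2 (1.01, adjusted p = 0.00454). On the fatty acid side FASN, SCD and FADS2 rose by 0.62, 0.71 and 1.03. In all, 8 of 17 tested sterol and fatty acid genes rose (47.1%) and none fell, with a median of 0.62, or -0.68 on the deposited scale. DESeq2 called 4 of them and thinned reads 3, with SREBF2 at 0.55 (adjusted p = 0.471) in thinned reads.

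THBS1 (hg19 chromosome 15, 39873280 to 39891667), which encodes the matrix glycoprotein thrombospondin 1, had 2879 and 2582 CPM in zdna3 CL and 2572 and 2706 CPM in zdna3 CC, against 1344 and 1284 CPM in zdna2 CL and 945 and 996 CPM in zdna2 CC. The zdna3 libraries were tight and far above zdna2, a difference of 1.26 (SE 0.103, adjusted p = 9.21e-12), or -0.18 on the deposited scale. CCN2, a secreted target of YAP and TGF-beta signalling, had 783 and 721 CPM in zdna3 CL and 845 and 612 CPM in zdna3 CC, against 283 and 351 CPM in zdna2 CL and 312 and 241 CPM in zdna2 CC, again without overlap (1.33, SE 0.165, adjusted p = 1.43e-07). ANKRD1, AMOTL2, CCN1 and TGFBI were also among the 7 rises of 17 tested YAP and TGF-beta target genes, with 0.70, 0.80, 0.58 and 1.45. None of the 17 fell, and the list median was 0.25, or -1.13 on the deposited scale, while DESeq2 called 4 and thinned reads 3 of them. Of 29 matrix and osteoblast genes 10 rose and none fell, with a median of 0.43, or -0.94 on the deposited scale, while DESeq2 called 3 and thinned reads 2. COL4A1 and COL4A2, which encode basement membrane collagen and lie head to head on chromosome 13, rose by 1.47 (SE 0.282, adjusted p = 0.000534) and 1.10 (SE 0.187, adjusted p = 9.19e-05). COL1A1, the main bone collagen, had 1149 and 1105 CPM in zdna3 CL and 665 and 871 CPM in zdna3 CC, against 661 and 725 CPM in zdna2 CL and 616 and 723 CPM in zdna2 CC. A zdna3 CC library lies within the zdna2 range, and the difference was 0.55 (SE 0.138, adjusted p = 0.0107), or 0.33 (adjusted p = 0.412) with thinned reads.

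Several further genes were named after their values were seen. CAVIN1, which coats caveolae, had 1200.2 to 1477 CPM in zdna3 and 481 to 647 CPM in zdna2 (1.29, SE 0.134, adjusted p = 3.11e-09), INHBA, a subunit of the secreted factor activin, had 336 to 557 CPM in zdna3 and 80.3 to 169 CPM in zdna2 (1.61, SE 0.232, adjusted p = 3.73e-06), and TGM2, EMP1 and TNFRSF12A rose by 1.08, 1.25 and 1.28. Among 33 actin cytoskeleton genes PLEC, FLNC, ACTN1 and AHNAK, which encode linkers and crosslinkers of the cytoskeleton, rose by 0.51, 0.48, 0.64 and 0.43 and none fell, while ACTB was at 0.11 (adjusted p = 0.332). The rises were 12.1% of the list, whose median was 0.11, or -1.31 on the deposited scale, and thinned reads called 2 of the list. HSPA8, the constitutive Hsp70 chaperone, had 2096 and 2042 CPM in zdna3 CL and 2158 and 2353 CPM in zdna3 CC, against 1329.7 and 1260.3 CPM in zdna2 CL and 1038 and 1244 CPM in zdna2 CC, a difference of 0.85 (SE 0.106, adjusted p = 1.43e-07) with no overlap. The small heat shock gene HSPB1 rose (0.64), and the mitochondrial chaperone gene HSPA9 fell (-0.76). SQSTM1, MT2A and TFRC, of autophagy, metal binding and iron uptake, rose by 0.97, 1.17 and 1.34 among 14 tested genes of iron and oxidative stress (21.4%), of which none fell, with a median of 0.38, or -0.90 on the deposited scale. DESeq2 called 2 of these genes and thinned reads 0.

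Keratin genes were also higher. KRT75 had 164 and 168 CPM in zdna3 CL and 198 and 188 CPM in zdna3 CC, against 21.8 and 29.7 CPM in zdna2 CL and 33.8 and 40.1 CPM in zdna2 CC (2.28, SE 0.339, adjusted p = 7.2e-06), KRT17 had 290.5 to 456 CPM in zdna3 and 72.3 to 131 CPM in zdna2 (1.68, SE 0.234, adjusted p = 1.89e-06) and KRT8 had 359.7 to 576 CPM in zdna3 and 254 to 346 CPM in zdna2 (0.68, SE 0.182, adjusted p = 0.0172). Of 15 epithelial markers 3 were tested and 2 were called, and the list summed to 1187 to 1645 CPM in zdna3 and 707 to 869 CPM in zdna2. CDH1, CLDN3, CLDN4, CLDN7, GRHL2 and ELF3, which define epithelial cells, had 0 reads in all 8 libraries.

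Histones are the proteins that package DNA, and many of their genes were higher in zdna3. Of 51 histone genes 26 were tested, 13 rose (50%), none fell and all 26 differences were positive, with a median of 0.73 that was -0.68 on the deposited scale. DESeq2 called 8 and thinned reads 5 of them, all higher. The linker histone genes H1-2 and H1-4 had 1414 to 1624 CPM in zdna3 and 636 to 1052 CPM in zdna2 and 1341 to 1642 CPM in zdna3 and 777 to 1164 CPM in zdna2, differences of 0.87 (SE 0.122, adjusted p = 2.04e-06) and 0.75 (SE 0.124, adjusted p = 5.6e-05). H2AC11 and H2BC11, neighbours on chromosome 6 that code for core histones, had 530.4 and 468 CPM in zdna3 CL and 288 and 447 CPM in zdna3 CC, against 145 and 143 CPM in zdna2 CL and 203 and 241 CPM in zdna2 CC for the first and 543 and 552 CPM in zdna3 CL and 306 and 329 CPM in zdna3 CC, against 124 and 196 CPM in zdna2 CL and 219 and 161 CPM in zdna2 CC for the second. In both genes the 4 zdna3 libraries lay above zdna2 with the CL libraries at the top, and the differences were 1.36 (SE 0.212, adjusted p = 1.87e-05) and 1.40 (SE 0.223, adjusted p = 3.1e-05). With thinned reads H2AC11 was at 0.72 (adjusted p = 0.303). In zdna3 CL over zdna2 CL 13 histone genes were called, all higher, with a list median of 0.99, and in the CC arm 1 was, with a median of 0.39. No member was among the genes whose difference depended on the arm. Histone genes are near-identical in sequence, so counts of single copies are uncertain. Chromosome 6, which carries the large histone cluster, had 19 rises and 13 falls among 225 genes tested, 14.2% called against 5.95% overall. By contrast 34 genes of DNA replication held 1 rise (MCM5, 0.95) and 1 fall (RFC1, -0.96), and 47 genes of mitosis held 1 rise (FAM83D, 1.56) and no fall. The replication genes, with 2.94% in each direction, and the mitosis genes, with 2.13% higher, were near the 3.07% higher and 2.87% lower of all genes tested or below them.

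Short structured RNAs rose as well. RN7SL1 and RN7SL2 are near-identical copies of the scaffold RNA of the signal recognition particle, so their counts are not fully told apart. RN7SL2 had 9308 and 8767 CPM in zdna3 CL and 10179 and 10966 CPM in zdna3 CC, against 5806 and 6296 CPM in zdna2 CL and 5352 and 5660.1 CPM in zdna2 CC. All 4 zdna3 libraries lay above zdna2, and the difference was 0.78 (SE 0.0709, adjusted p = 1.01e-10). RN7SL1 had 5986 and 5921 CPM in zdna3 CL and 7967 and 9648 CPM in zdna3 CC, against 5362 and 5570.3 CPM in zdna2 CL and 4119 and 3685 CPM in zdna2 CC. Its rise of 0.59 (SE 0.106, adjusted p = 0.000201) was carried by the CC arm, as the test of the arms shows. RMRP, the RNA of the mitochondrial RNA processing ribonuclease, differed by 0.51 (SE 0.0857, adjusted p = 6.81e-05) and the 5S ribosomal RNA copy RNA5S9 by 1.79 (SE 0.258, adjusted p = 4e-06). RN7SK (7SK RNA), the scaffold that keeps P-TEFb, an elongation kinase, in an inactive complex, had 40009.6 and 37181 CPM in zdna3 CL and 40967 and 40312 CPM in zdna3 CC, against 35436 and 37203 CPM in zdna2 CL and 35460.5 and 34249.9 CPM in zdna2 CC. The zdna2 values reach into the zdna3 range and the difference of 0.20 (SE 0.0442, adjusted p = 0.00382) was not called by edgeR (adjusted p = 0.0821). Of 8 tested members of the list 5 rose and none fell, with a median of 0.55, or -0.88 on the deposited scale, DESeq2 called 3 of them, and RPPH1, the RNA of ribonuclease P, was at -0.066 (adjusted p = 0.751). None of 7 spliceosomal RNAs was called, and edgeR called 0 of them too, with 0 at an unadjusted p under 0.05.

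SNORA73A, an H/ACA small nucleolar RNA also known as U17, is shown because it had one of the smallest p-values of all genes.
SNORA73A, chr1:28507366-28507571, plus strand, GENCODE 29 (GRCh38): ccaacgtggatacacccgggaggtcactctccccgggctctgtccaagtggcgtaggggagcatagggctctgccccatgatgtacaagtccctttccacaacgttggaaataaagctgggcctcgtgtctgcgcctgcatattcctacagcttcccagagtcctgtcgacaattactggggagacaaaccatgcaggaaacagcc
It had 821 and 913 CPM in zdna3 CL and 827 and 1012 CPM in zdna3 CC, against 225 and 291 CPM in zdna2 CL and 262 and 265 CPM in zdna2 CC. The zdna3 libraries lay far above zdna2 with no overlap, a difference of 1.79 (SE 0.159, adjusted p = 7.59e-11). SNORA73B, its sister copy in the same region, was at 0.41 (adjusted p = 0.086) and was not called by limma, although edgeR called it (adjusted p = 0.0456). SNORD3A (U3), which guides early ribosomal RNA processing, rose by 0.71 (SE 0.124, adjusted p = 0.000138) and SNORD17 by 1.53 (SE 0.48, adjusted p = 0.0456), the remaining rises among 9 tested small nucleolar and Cajal body RNAs. The list median was 0.26, or -1.02 on the deposited scale, and thinned reads called 1 of the list. SNORA66, which lies within RPL5 on chromosome 1, rose (2.31, adjusted p = 0.0113, on 26 reads in zdna3 and 7 in zdna2), while RPL5 itself fell (-0.55, adjusted p = 0.0234). MIR663AHG, the host transcript of miR-663a, had 342 to 396 CPM in zdna3 and 71.3 to 116 CPM in zdna2 (1.96, SE 0.234, adjusted p = 6.34e-08), and FLJ16779 differed by 2.40 (SE 0.542, adjusted p = 0.00382) on 30 reads in zdna3 and 9 in zdna2. Counting took no account of strand, so reads of a gene and of another that overlaps it or runs antisense cannot be told apart.

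**Figure D3:**
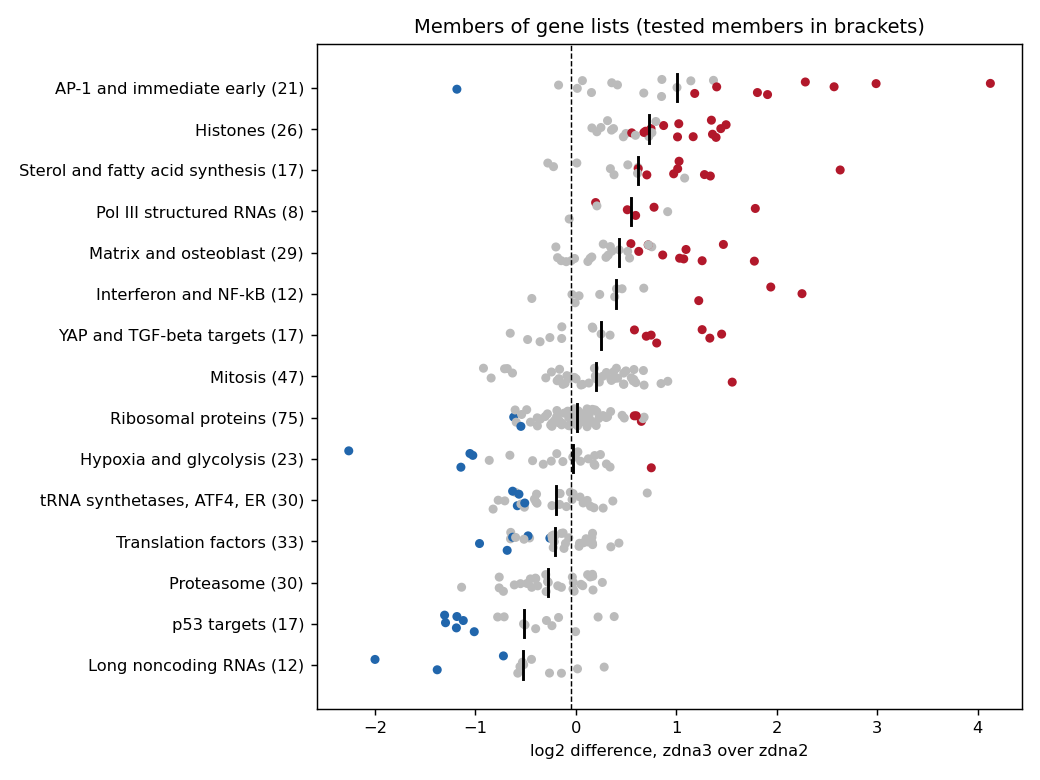
Difference of zdna3 over zdna2 in log2(CPM + 10) for tested members of 15 gene lists, with the number tested in brackets. Red points rose, blue points fell and grey points were not called, black bars are list medians and the dashed line is the median of all genes, -0.046. Immediate early, histone and sterol genes lie mostly right of the line and p53 targets and long noncoding RNAs mostly left, and on the deposited scale, whose median over all genes is -1.35, every list median shown is negative.

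The falls were led by single genes of diverse function. DDIT4, an inhibitor of the growth kinase mTORC1 induced by stress, had 37.9 and 24.0 CPM in zdna3 CL and 36.0 and 0 CPM in zdna3 CC, against 116 and 131 CPM in zdna2 CL and 152 and 225 CPM in zdna2 CC. It was low in every zdna3 library and at 0 reads in one, a difference of -2.26 (SE 0.435, adjusted p = 0.000534) on 7 reads in zdna3 and 84 in zdna2. With thinned reads DDIT4 was not called, and DESeq2 gave it no adjusted p. SOS1, the exchange factor that activates RAS, had 25.3 and 0 CPM in zdna3 CL and 54.0 and 70.6 CPM in zdna3 CC, against 102 and 155 CPM in zdna2 CL and 127 and 128 CPM in zdna2 CC (-2.05, SE 0.441, adjusted p = 0.00234). This fall rests on 8 reads in zdna3 and 71 in zdna2. With thinned reads SOS1 was at -2.14 (adjusted p = 0.0829), and DESeq2 gave it no adjusted p. MALAT1, a long noncoding RNA of nuclear speckles, had 63.1 and 60.0 CPM in zdna3 CL and 108 and 47.1 CPM in zdna3 CC, against 305 and 345 CPM in zdna2 CL and 211 and 353 CPM in zdna2 CC. The highest zdna3 library lay well below the lowest zdna2 library, and the difference was -2.0 (SE 0.27, adjusted p = 1.03e-06). TUG1 had 114 and 60.0 CPM in zdna3 CL and 89.9 and 165 CPM in zdna3 CC, against 298 and 321 CPM in zdna2 CL and 228 and 249 CPM in zdna2 CC (-1.38, SE 0.258, adjusted p = 0.000365), and NORAD, a cytoplasmic RNA that binds Pumilio proteins, differed by -0.72 (SE 0.187, adjusted p = 0.0138). NEAT1, the scaffold of paraspeckles, was at -0.44 (adjusted p = 0.153). Of 12 tested long noncoding RNAs in the list, snoRNA host transcripts included, MALAT1, TUG1 and NORAD fell and none rose, with a median of -0.53, or -1.82 on the deposited scale. DESeq2 and thinned reads each called MALAT1 and TUG1 alone among them. NORAD had an adjusted p of 0.162 in DESeq2 and was at -0.55 (adjusted p = 0.356) with thinned reads.

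MDM2 (hg19 chromosome 12, 69201952 to 69244464), the ubiquitin ligase that degrades p53 and is itself a p53 target, had 290.5 and 360.3 CPM in zdna3 CL and 306 and 329 CPM in zdna3 CC, against 952 and 886 CPM in zdna2 CL and 717 and 755 CPM in zdna2 CC. The highest zdna3 library lay far below the lowest zdna2 library, and the difference was -1.31 (SE 0.153, adjusted p = 3.81e-08). RRM2B, the p53-induced subunit of ribonucleotide reductase, had 164 and 108 CPM in zdna3 CL and 162 and 141 CPM in zdna3 CC, against 327 and 327 CPM in zdna2 CL and 371 and 297 CPM in zdna2 CC, without overlap (-1.12, SE 0.218, adjusted p = 0.000585). The repair genes DDB2 and XPC fell, with -1.30 (adjusted p = 0.0174) and -1.01 (adjusted p = 0.0198), as did ZMAT3, whose libraries overlap, and BTG2, with -1.19 (adjusted p = 0.0232) and -1.18 (adjusted p = 0.0324). In all 6 of 17 tested p53 targets fell (35.3%) and none rose, with a median of -0.52, or -1.92 on the deposited scale. DESeq2 and thinned reads each called MDM2 and RRM2B alone among them, and DESeq2 gave BTG2 no adjusted p. CDKN1A, the cell cycle inhibitor p21, was at -0.51 (adjusted p = 0.204) and was not called. EDA2R, also described as a p53 target, was among the falls (-1.55, SE 0.412, adjusted p = 0.0162).

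**Figure D4:**
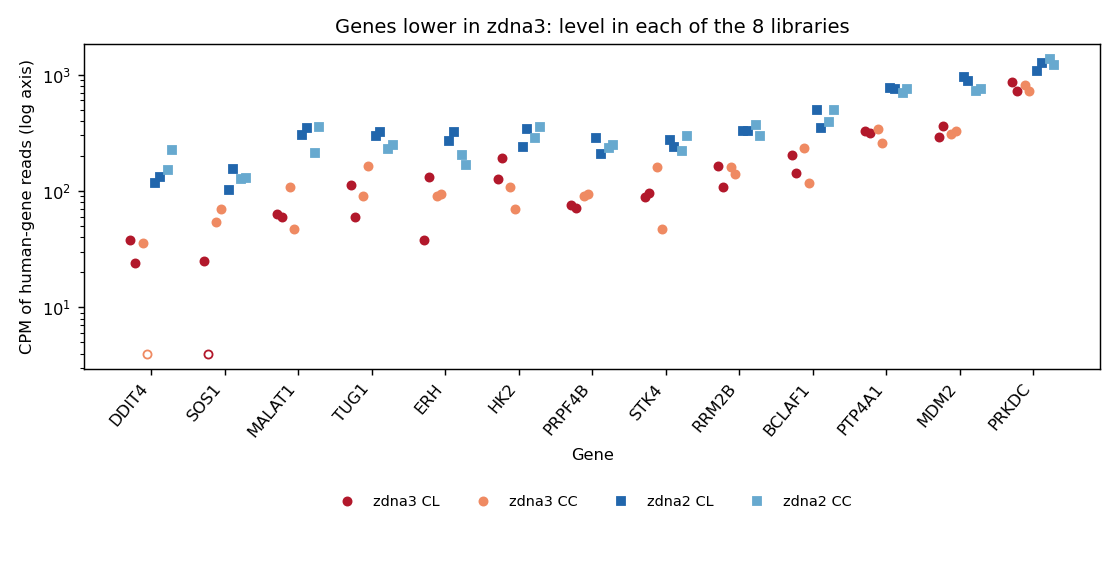
Level of 13 genes lower in zdna3, in CPM of human-gene reads (log axis), 1 point per library: red and orange circles for zdna3 CL and CC, dark and light blue squares for zdna2 CL and CC. Open markers near the foot stand for 0 reads. In each gene all 4 zdna3 libraries lie below all 4 zdna2 libraries, a condition by which some of them were picked. Each was lower on the deposited scale too.

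Of 23 hypoxia and glycolysis genes 4 fell (17.4%) and 1 rose (4.35%). The falls were DDIT4, the glucose transporter gene SLC2A1 (-1.03, SE 0.245, adjusted p = 0.00699), VEGFA (-1.05, SE 0.289, adjusted p = 0.0202), which encodes an angiogenic growth factor, and HK2 (-1.14, SE 0.247, adjusted p = 0.00243), the inducible hexokinase. HK1, the constitutive hexokinase, was the rise, with 556 and 480.4 CPM in zdna3 CL and 504 and 518 CPM in zdna3 CC, against 327 and 339 CPM in zdna2 CL and 329 and 249 CPM in zdna2 CC (0.75, SE 0.171, adjusted p = 0.00419), or -0.66 on the deposited scale. HK1 and HK2 differed in opposite directions relative to human-gene reads. The glycolytic genes GAPDH, ENO1 and PGK1 were at -0.0059, 0.047 and 0.020, and the list median was -0.031, or -1.42 on the deposited scale. DESeq2 and thinned reads each called 1 rise and 1 fall in the list, HK1 and HK2, and DESeq2 gave DDIT4 no adjusted p.

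Translation factors and tRNA synthetases held falls and no rises. Of 33 translation factor genes 5 fell, 15.2% of the list. These were EIF5B, EIF3L, EIF3A, EEF1A1 and EIF2S3, with -0.68, -0.63, -0.48, -0.26 and -0.96, and the list median was -0.21, or -1.55 on the deposited scale. EEF1A1, the elongation factor that delivers tRNA, had 3258 and 3699 CPM in zdna3 CL and 4298 and 3342 CPM in zdna3 CC, against 4498 and 4572 CPM in zdna2 CL and 4439.9 and 4327 CPM in zdna2 CC. Its libraries did not overlap, but edgeR did not call it (adjusted p = 0.0826) nor EIF2S3 (adjusted p = 0.081). Of 30 genes of ATF4, tRNA synthetase and endoplasmic reticulum function 4 fell (13.3%), the synthetase genes IARS1, EPRS1 and GARS1 and the chaperone gene CANX, with -0.57, -0.63, -0.58 and -0.51 and a median of -0.20, or -1.52 on the deposited scale. DESeq2 and thinned reads called 0 genes of either list, and with thinned reads EIF2S3 was at -1.51 (adjusted p = 0.0938). Of 40 ribosome biogenesis genes NPM1, NOP58 and WDR75 fell and NOLC1 rose (-0.47, -0.98, -0.93 and 0.62). DESeq2 called 1 of these falls and no rise, and thinned reads called 0, with WDR75 at -0.34 (adjusted p = 0.774). Among 75 ribosomal protein genes RPLP1, RPS19 and RPL31 rose by 0.65, 0.58 and 0.60 and RPL5 and RPS13 fell, 4.00% and 2.67% of the list, while DESeq2 and thinned reads each called 1 rise and 0 falls.

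PTP4A1, a phosphatase, BCLAF1 and PRPF4B, both of RNA processing, the chromatin factor ZBTB20 and the Hippo kinase gene STK4 fell, with -1.18, -1.23, -1.43, -1.08 and -1.35, named after their values were seen. The 15 steepest falls without overlap also took in DHX36 (-1.60, SE 0.391, adjusted p = 0.00837), a helicase of G-quadruplexes, SMARCAD1 (-1.46, SE 0.369, adjusted p = 0.0115), a chromatin remodeller, ERH (-1.45, SE 0.291, adjusted p = 0.000898), KRIT1, a junction scaffold, ATP2C1, a calcium pump of the Golgi, DCP1B, an mRNA decapping factor, and SLF2, ZNF160, FBXL13, SLFN5 and MPHOSPH10. Those from KRIT1 to MPHOSPH10 lay between -1.92 and -1.52 on 4 to 9 reads in zdna3 and 45 to 61 reads in zdna2. None of these 8 was called with thinned reads, where KRIT1 was at -0.41 (adjusted p = 0.9) and SLF2 at -1.05 (adjusted p = 0.663), and DESeq2 gave them no adjusted p. SMARCAD1 was at -2.25 (adjusted p = 0.0639) with thinned reads. PRKDC, the catalytic subunit of the DNA repair kinase DNA-PK, had 871 and 721 CPM in zdna3 CL and 809 and 729.5 CPM in zdna3 CC, against 1075 and 1260.3 CPM in zdna2 CL and 1367 and 1196 CPM in zdna2 CC (-0.56, SE 0.125, adjusted p = 0.00332) and was the 1 call among 24 repair genes. No gene of the proteasome (30 tested) or the respiratory chain (39 tested) was called by limma or edgeR, with 3 in each list at an unadjusted p under 0.05.

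The called genes differed in size. The median exon length was 3072 bases for the rises, 6377.5 for the falls and 4413.5 for all genes tested, and the median span from start to end was 16509, 64335 and 36964 bases. Promoters in RefSeq (250 bases before to 50 after the start) were matched by symbol for 103 of the 141 rises and 101 of the 132 falls. TATAAA, searched on both strands, was held by 29.1% of the matched rises, 9.90% of the falls, 9.12% of genes tested and 14% of all promoters in the table, and 11 of the 30 rises that held it were histone genes. The CArG box was held by 6.80% of the rises, 0.990% of the falls, 1.87% of genes tested and 1.6% of all promoters. Its 7 holders among the rises were ACTN1, CAPN2, EGR1, H2BC21, JPT1, MIDEAS and RCAN1. TGACGT was held by 17.5% of the rises, 15.8% of the falls and 16.5% of genes tested, TGACTCA by 7.77%, 7.92% and 4.96%, and CACGTG, the E-box bound by MYC and other factors, by 4.85%, 16.8% and 14.2%. CGCGCG, an alternating run that can take up the Z form, was held by 34.0% of the rises, 34.7% of the falls and 37.9% of genes tested. TATAAA and the CArG box can overlap in letters, a match describes the sequence only, and sites outside this window were not searched.

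The arms share no library, so each gives its own account of the difference. In CL 175 genes were called (3.81%), 102 higher (2.22%) and 73 lower (1.59%), and in CC 84 (1.83%), 50 higher (1.09%) and 34 lower (0.74%). Of the 102 rises in CL 86 had the same sign in CC and 32 were called there too, and of the 50 rises in CC 47 had the same sign in CL and 32 were called. Of the 73 falls in CL 55 had the same sign in CC and 5 were called there, and of the 34 falls in CC 27 had the same sign in CL and 5 were called. FOSB, FOS, EGR1, JUN, ATF3, NFATC2, MYC and THBS1 were called higher in each arm, and MALAT1 and MDM2 lower in each. Across the 4592 genes the differences in the arms correlated with Pearson's r of 0.370 and Spearman's rho of 0.350, and across the 947 genes of at least 200 CPM with 0.608 and 0.556, a description over genes, which are not independent replicates.

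The test of the difference between the arms called 6 of 4592 genes (0.131%), 2 with a larger zdna3 over zdna2 difference in CL (0.0436%) and 4 with a larger one in CC (0.0871%). RN7SL1 differed by 0.18 in CL and by 1.22 in CC, an interaction (CL minus CC) of -1.04 (SE 0.113, adjusted p = 9.22e-10). RPPH1 had 3397 and 3651 CPM in zdna3 CL and 4784 and 4965 CPM in zdna3 CC, against 4969.9 and 4792 CPM in zdna2 CL and 3613 and 3757 CPM in zdna2 CC. It was lower in zdna3 in the CL arm and higher in the CC arm, an interaction of -0.87 (SE 0.123, adjusted p = 2.88e-06). The spliceosomal RNAs RNU5E-1 and RNU12, of the major and the minor spliceosome, lay below zdna2 in CL and above it in CC, with -0.38 in CL and 0.50 in CC for the first and -0.75 and 0.75 for the second. Their interactions were -0.87 (SE 0.178, adjusted p = 0.00769) and -1.50 (SE 0.34, adjusted p = 0.0284). PPP1R14B, an inhibitor of protein phosphatase 1, had 215 and 192 CPM in zdna3 CL and 71.9 and 23.5 CPM in zdna3 CC, against 116 and 143 CPM in zdna2 CL and 228 and 241 CPM in zdna2 CC, above zdna2 in CL and below it in CC (interaction 2.85, SE 0.578, adjusted p = 0.00769). LRBA, a vesicle trafficking protein gene, followed the same pattern on 19 reads in zdna3 and 50 in zdna2 (interaction 3.88, SE 0.865, adjusted p = 0.0275). The cyclin gene CCND2 was next in order of p and did not pass, with -0.20 in CL, -1.40 in CC and an interaction of 1.20 (SE 0.289, adjusted p = 0.06).

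**Figure D5:**
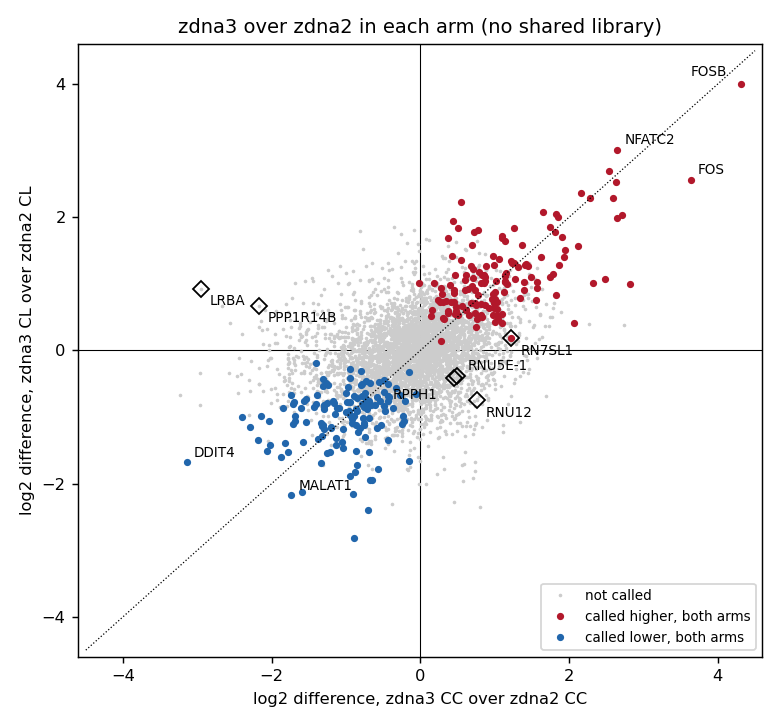
Difference of zdna3 over zdna2 in log2(CPM + 10) in the CC arm (x axis) and in the CL arm (y axis), 1 point for each of 4592 human genes, with no library in common. Red and blue points are the 141 rises and 132 falls with arm held fixed, diamonds mark the 6 genes whose difference depended on the arm, and the dotted line marks equal differences. Most called genes share a sign in both arms, which the fit over both arms that called them favours. RPPH1, RNU5E-1, RNU12, PPP1R14B and LRBA lie in quadrants of opposite sign.

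The number of calls depended on single libraries. With arm held fixed, leaving out replicate 1 or 2 of zdna3 CL left 128 and 124 calls, and leaving out replicate 1 or 2 of zdna2 CL left 173 and 163. In the CL arm, leaving out replicate 1 or 2 of zdna2 CL left 37 and 38 calls. In the CC arm, leaving out replicate 1 or 2 of zdna2 CC left 32 and 26 calls, whereas leaving out replicate 1 or 2 of zdna3 CC gave 543 and 336, and the test between the arms then called 145 and 38 genes. A group left with a lone library is assumed to vary like the others. With every library thinned to 42494 reads, the depth of the shallowest, 68 genes were called with arm held fixed, 51 higher and 17 lower, and DESeq2 called 85, 69 higher and 16 lower.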

How the data were processed

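RNA-seq of U2OS cells was used in 8 libraries, with groups taken from the titles. The submitters' processing notes name Trim Galore 0.6.6, STAR and bedtools 2.29.2 as tools and hg19 and dm6 as genome builds. Per the file headers, the authors counted paired fragments over exons with featureCounts 2.0.1 without strand, with the contig of the library's number added to hg19. The deposited values are a scaled signal. The scaling factor is not stated, and whether it rests on a spike-in, a word that a file header holds, could not be settled. In each library 99.99% to 100% of nonzero values (rounded) are whole multiples, within 0.1 read, of its smallest step. Dividing by that step recovered whole reads, and human-gene rows alone were scaled to CPM. Coordinates of genes are those of the files (hg19), and sequences come from GRCh38 builds. Near-identical copies (RN7SL1 and RN7SL2, 5S RNA, histones, actins, tubulins) are not fully told apart.

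Differences were tested with limma 3.58.1 (R 4.3.3) with a mean-variance trend on log2(CPM + 10), TMM factors from edgeR 4.0.16, array weights per group and a filter at a mean of 50 CPM, two-sided, with Benjamini-Hochberg adjustment over all 4592 genes. Arm was a term in the model with both arms, and 4 group means gave the values within arms and their interaction. Alternatives were edgeR's quasi-likelihood test, DESeq2 1.42.0, voom, other scalings, pseudocounts, filters, a replicate block, all 16 libraries, thinned reads and leaving out each library. The scripts were tested on simulated data. Replicates of zdna3 CC, and of zdna2 CL, differed by no more than sampling noise in a chi-square test of gene counts (p = 0.744 and p = 0.281). Those of zdna3 CL and zdna2 CC differed slightly in the same test (p = 0.0364 and p = 0.048), with chi-square values per degree of freedom of 1.04 and 1.03. The share taken by the contig differed in all 4 pairs (p at most 0.00183), so each was kept as 2 libraries. Intervals and floors (3 counts) cover counting error only. Members and the 39 gene lists were chosen with earlier results of these data known. Genes named are the 15 steepest rises and falls without overlap, the 10 called genes with the highest mean CPM, the 10 smallest p between arms, 9 genes given in advance and up to 6 members of each list; other genes named, such as RCAN1, JUNB and KLF6, were chosen after their values were seen. Results of some genes that these rules pick are not reported here.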

Additional observations from a re-analysis of the deposited data

Results flagged for a closer look

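Genes whose zdna3 over zdna2 difference depended on the arm were taken up for a closer look, with limma's interaction (CL minus CC) on log2(CPM + 10). It was -1.04 for RN7SL1 (adjusted p = 9.22e-10), -0.87 for RPPH1 (adjusted p = 2.88e-06), -0.87 for RNU5E-1 (adjusted p = 0.00769) and -1.50 for RNU12 (adjusted p = 0.0284), so the zdna3 over zdna2 difference of these short structured RNAs was larger in CC than in CL. The zdna2 libraries took part in this for RPPH1 (4970 and 4792 CPM in zdna2 CL, 3613 and 3757 CPM in zdna2 CC) and RN7SL1 (5362 and 5570 CPM, 4119 and 3685 CPM). For RNU12 the zdna2 libraries stayed at 414 to 474 CPM and for RNU5E-1 at 1766 to 2064 CPM. The interaction was 2.85 for PPP1R14B (adjusted p = 0.00769) and 3.88 for LRBA (adjusted p = 0.0275). edgeR called the same 6 genes among its 7. The contig's share of assigned reads differed between the arms of zdna3 along with them, at 21.2% in CL and 87.5% in CC, against 60.6% in zdna2 CL and 63.9% in zdna2 CC, and its part in these differences was not tested.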

How the results depend on the processing

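Most single-gene results with arm held fixed stayed on the same side of the threshold, which for uncalled genes means only that they stayed uncalled. Over the named genes and 22 alternatives 4274 values stayed so, 471 were no longer past the threshold and 131 newly passed it. Thinned reads lost the call of 74 named genes and DESeq2 that of 41. Among genes called with arm held fixed 50 further values changed sign, all 50 on the deposited scale. Sign changes of genes not called there were not counted apart and lie within the 4274 and the 131. Against 273 calls with arm held fixed, 175 in CL, 84 in CC and 6 between the arms, DESeq2 called 85, 34, 27 and 2, the deposited scale 4062, 2743, 3974 and 407, and reads thinned to the shallowest library 68, 15, 20 and 2. With no array weights 63 genes were called in CL and 2 between the arms, with no filter on low values 4 in CL, 8 in CC and 1 between the arms, and with a pseudocount of 1 CPM 55 in CC. The other alternatives kept these counts within 1.5 times, edgeR with 347, 214, 91 and 7. Other splits between higher and lower calls were voom (223 and 75), DESeq2 (69 and 16), no filter (74 and 293) and thinned reads (51 and 17), against 141 and 132. The replicate block gave 240, 144, 86 and 6 calls, and deviations between replicates 1 and 2 correlated by -0.0129 to 0.0095 from group to group. These deviations are largely sampling noise, so the correlations cannot show whether libraries of the same replicate number were paired. Leaving out each library in turn gave 124 to 233 calls with arm held fixed, 37 to 209 in CL, 26 to 543 in CC and 2 to 145 between the arms, the causes of which were not tested. 1 read in zdna3 is worth up to 23.5 CPM, which limits the precision of low genes. Genes without an adjusted p in DESeq2 are left out of its lost calls.

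On the deposited scale the sign of 50 named rises turned negative. These were TFRC (-0.0065), H2BC11 (-0.038), TNFAIP3 (-0.067), H2AC11 (-0.078), CCN2 (-0.090), TNFRSF12A (-0.092), HMGCS1 (-0.11), EMP1 (-0.11), MYC (-0.15), CAVIN1 (-0.16), THBS1 (-0.18) and MT2A (-0.19). Next came H2AC6 (-0.23), COL4A2 (-0.30), COL5A1 (-0.32), TGM2 (-0.33), FADS2 (-0.33), SREBF2 (-0.37), MCM5 (-0.43), H2BC21 (-0.43), SQSTM1 (-0.44), TUBB4B (-0.57), AMOTL2 (-0.59), H1-2 (-0.59) and HSPA8 (-0.59). Lower still were HK1 (-0.66), RN7SL2 (-0.67), ANKRD1 (-0.71), HNRNPF (-0.71), SNORD3A (-0.72), H1-4 (-0.72), LGALS1 (-0.72), RPLP1 (-0.76), KRT8 (-0.76), HSPB1 (-0.77), ACTN1 (-0.79) and NOLC1 (-0.81). The most negative were FASN (-0.81), CD44 (-0.81), RN7SL1 (-0.83), RPL31 (-0.83), TUBA1C (-0.83), RPS19 (-0.85), CCN1 (-0.87), COL1A1 (-0.91), RMRP (-0.93), PLEC (-0.96), FLNC (-0.98), AHNAK (-1.04) and RN7SK (-1.26).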

Other observations

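Some groups among the called genes were chosen after their values were seen and are given as values only. LATS1, like STK4 a kinase of the Hippo pathway that restrains YAP, had 75.8 and 84.1 CPM in zdna3 CL and 54.0 and 47.1 CPM in zdna3 CC, against 138 and 137 CPM in zdna2 CL and 177 and 225 CPM in zdna2 CC. Its libraries did not overlap and its difference was -1.09 (SE 0.305, adjusted p = 0.0225). Methyltransferase and related chromatin genes KMT2A, ASH1L and KMT2E fell, with -0.81 (adjusted p = 0.0116), -0.89 (adjusted p = 0.00596) and -0.73 (adjusted p = 0.0365). The ubiquitin pathway genes UBR4 and BIRC6 fell, with -0.51 (adjusted p = 0.0115) and -0.77 (adjusted p = 0.00264). Among stress genes, SOD2, the mitochondrial superoxide dismutase, had 168 to 424 CPM in zdna3 and 79.9 to 113 CPM in zdna2 (1.36, adjusted p = 0.000773), and PPP1R15A, which restores translation after stress, had 414 to 706 CPM in zdna3 and 245 to 363 CPM in zdna2 (0.79, adjusted p = 0.00354), with 0.015 and -0.62 on the deposited scale.

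Of 8 tubulin genes TUBB4B and TUBA1C rose (0.82 and 0.59, 25% of the list) and none fell, with a median of 0.34, or -1.0 on the deposited scale, while DESeq2 called 0 and thinned reads 1. Of 39 splicing factor and hnRNP genes HNRNPF rose (0.68) and 2 fell, HNRNPU among them (-0.41), with a median of -0.099, or -1.47 on the deposited scale. The calls were 2.56% and 5.13% of the list, against 3.07% and 2.87% of all genes tested. DESeq2 and thinned reads called 0 of the list, with HNRNPU at -0.17 (adjusted p = 0.705) in thinned reads. Of 16 heat shock genes 2 rose and 1 fell, with a median of 0.10, or -1.19 on the deposited scale. None of 7 genes for proteins of the signal recognition particle was called by limma or edgeR, with 2 at an unadjusted p under 0.05, and of 15 genes of P-TEFb and its partners limma called RN7SK alone and edgeR MEPCE alone (0.94, edgeR adjusted p = 0.0285). Of the 10 tested mesenchymal and osteosarcoma markers LGALS1, COL1A1, CD44 and COL5A1 rose and none fell, with a median of 0.43, or -0.99 on the deposited scale, while DESeq2 and thinned reads each called 1. None of the 2 neuronal and 2 muscle and liver markers tested was called by limma, TTN among them at 1.37 (adjusted p = 0.0972), although edgeR called 1 in each list and 1 in each stood at an unadjusted p under 0.05. The 11 genes encoded in mitochondrial DNA were not analysed here.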
